A study of Homo sapiens with 12 samples.

Results

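RNA of OCI-LY3, a cell line of diffuse large B-cell lymphoma (DLBCL), taken after 3 h with an inhibitor of the kinase CDK9, was set against RNA of the same line at the start of treatment. The comparison took the libraries labelled OCI-LY3 and 3 h and those labelled OCI-LY3 and 0 h, 2 on each side and 4 of the 12 libraries of the series. All genes with enough reads for a test were used, 16374 of the 58233 in the count table. DLBCL is an aggressive cancer of mature B cells, and OCI-LY3 is an established line from such a tumour. The 3 h cells had been kept with 300 nM AZ5576, a selective CDK9 inhibitor, and the 0 h cells were collected without it. OCI-LY3 cells after 6 h with the same dose, and the DLBCL line VAL at 3 h and 0 h, are used below where a gene's later course or the difference between lines is given. The series text speaks of vehicle, while the labels give no treated-with-vehicle cells at 3 h, so time in culture and handling are part of every change reported. The labels do not say that the libraries of a group came from separate cultures. The p-values therefore measure only the spread between libraries, which was estimated over all 12, those of VAL included.

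The B-cell identity of the libraries was checked on markers. All 8 B-cell markers were above 1 CPM (counts per 1000000 counts of the library, scaled by TMM, a correction for library composition), with summed levels of 3772 and 3750 CPM at 3 h, against 3387 and 3410 CPM at 0 h. OCI-LY3 is usually classed as DLBCL of the activated B-cell type, which expresses IRF4 and CCND2. In the libraries labelled OCI-LY3 the germinal-centre markers MME and SERPINA9 were high at 0 h, at 155 and 157 CPM and at 85.4 and 80.9 CPM. IRF4 stood there at only 2.83 and 2.71 CPM, against 26.9 and 27.9 CPM in untreated VAL, and CCND2 at 0 and 0.0452 CPM. Other markers of both lists went the other way: the germinal-centre marker LMO2 had 0 and 0.0226 CPM in untreated OCI-LY3, against 78.6 and 75.7 CPM in untreated VAL, and the activated-type marker BATF 11.2 and 11.1 CPM, against 1.5 and 1.94 CPM. The levels of IRF4, CCND2, MME and SERPINA9 go against the usual class of the line, while those of LMO2 and BATF do not, so the markers give no single class. The name OCI-LY3 is used below for the libraries so labelled. Of the markers of other cells, those of T and NK cells summed to 7.84 and 7.08 CPM at 3 h, against 6.44 and 6.26 CPM at 0 h, and those of erythroid cells stayed near 0. COL1A1, a stromal collagen gene, had 67.6 and 67.2 CPM at 3 h, against 33.8 and 28.8 CPM at 0 h (log2 1.11 ± 0.246 by edgeR, adjusted p = 0.0042, but -0.016 with mitochondrial mRNAs held level), while the keratin genes KRT8 and KRT18 were at or near 0.

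CDK9 with cyclin T forms P-TEFb, which phosphorylates RNA polymerase II and its pausing factors and so lets paused polymerase enter the body of a gene. Most cellular P-TEFb is held inactive on the 7SK particle, and BET proteins help bring it to genes. When elongation is blocked, an mRNA that is degraded quickly declines soonest, while a stable one persists. CDK9 inhibitors are studied in B-cell lymphoma because the survival proteins MCL1 and MYC are short-lived as mRNA and as protein.

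The 3 h libraries held 28865842 and 28552461 counts and the 0 h libraries 36338085 and 39715536. They also differed in make-up: mRNAs encoded by mitochondria took 5.24% and 3.77% of counts at 3 h, against 2.37% and 2.25% at 0 h, and ribosomal protein mRNAs 13.8% and 12.5%, against 9.16% and 9.46%. Such shares are relative, so a loss of other RNA and a gain of these RNAs cannot be told apart without an added standard. The 2 libraries at 3 h were less alike than those at 0 h, as the chi-square between replicates, divided by its degrees of freedom, was 18.2 at 3 h and 2.26 at 0 h.

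After 3 h more genes were lower than higher. The larger falls were mostly in moderately expressed genes and the larger rises mostly in genes near the limit of detection. With edgeR's quasi-likelihood test and an adjusted p under 0.05, 3983 of 16374 genes fell (24.3%), 2917 rose (17.8%) and 9474 did not pass. At least 2-fold falls numbered 2326 (14.2%) and at least 2-fold rises 1088 (6.64%). Falls of at least 4-fold were seen in 794 genes and of at least 8-fold in 197. The 2326 genes had a median level of 4.33 CPM at 3 h, against 16.2 CPM at 0 h, and 656 of them were below 5 CPM in both groups. For the 1088 genes the medians were 0.735 CPM at 3 h and 0.153 CPM at 0 h, and 969 of them were below 5 CPM in both groups. Higher genes made up 42.3% of all calls. This split depends on the scaling: it became 64.9% with upper-quartile factors, 52.2% with DESeq2's size factors, 26.8% with library totals alone, 6.6% when ribosomal protein mRNAs were held level and 3.71% when mitochondrial mRNAs were held level. Over the genes tested the median log2 change was 0.00 with TMM, and 0.29, 0.10, -0.17, -0.65 and -1.09 with those 5 scalings in the same order. With the 6 OCI-LY3 libraries fitted alone, without the spread of VAL, 5231 genes fell and 4417 rose, against 3983 and 2917 in the main fit. Leaving out one library gave between 2915 and 3094 lower genes and between 1490 and 2094 higher ones. The lowest count of higher genes came without 0 h replicate 1, and it was 1492 without 3 h replicate 1.

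**Figure D1:**
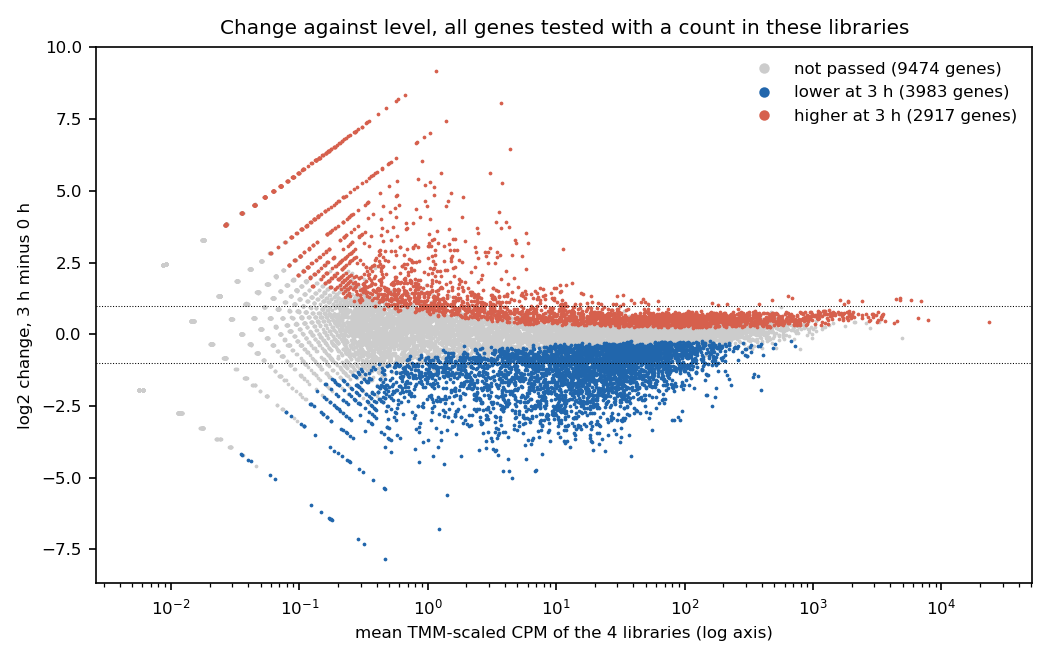
Log2 change at 3 h against 0 h (vertical axis) by mean level of the 4 libraries in TMM-scaled CPM (log axis), for the genes tested that had a count in them. Blue points are the 3983 genes that fell and red points the 2917 that rose; the dotted lines mark 2-fold, and most red points beyond 2-fold lie under 5 CPM.

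Fall or rise went with gene structure. Among 8504 protein-coding genes of at least 5 CPM on average, 33.9% fell and 18.7% rose. Of the 117 with a single exon, 72.6% fell and 14.5% rose, with a median log2 change of -1.24. Of the 714 with 2 or 3 exons, 58.1% fell and 12.7% rose, with a median of -0.69. The share that fell was 38.5% of 1771 genes with 4 to 6 exons, 34.2% of 2859 with 7 to 12, and 23.9% of 3041 with 13 or more, whose median was -0.03. The 3′ untranslated region (3′UTR), where many signals for mRNA decay lie, differed as well. Among all protein-coding genes with a model, 36.2% fell and 8.57% rose in the longest of 5 bins of 3′UTR length with about equal numbers of genes, against 13.8% and 30.1% in the shortest. The median level at 0 h was 25.8 CPM in the longest bin and 13.6 CPM in the shortest. Bins of whole spliced length differed much as these did, with 31.4% that fell and 8.67% that rose in the longest, against 13.7% and 31.2%. Gene span gave no steady order of falls of any size: over 5 bins of the shortest to the longest genes, 26.2%, 31.4%, 31.7%, 30.9% and 20% fell. Falls of at least 2-fold did become fewer with span. Among genes of at least 5 CPM they made up 21%, 19.6%, 18.7%, 17.1% and 10.3% of such bins. Genes that fell at least 2-fold had a median of 6 exons and a span of 24594 bp, against 9 exons and 31898 bp over all protein-coding genes tested. These are descriptions without a test, since genes are not independent and share length, level and exon number.

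**Figure D2:**
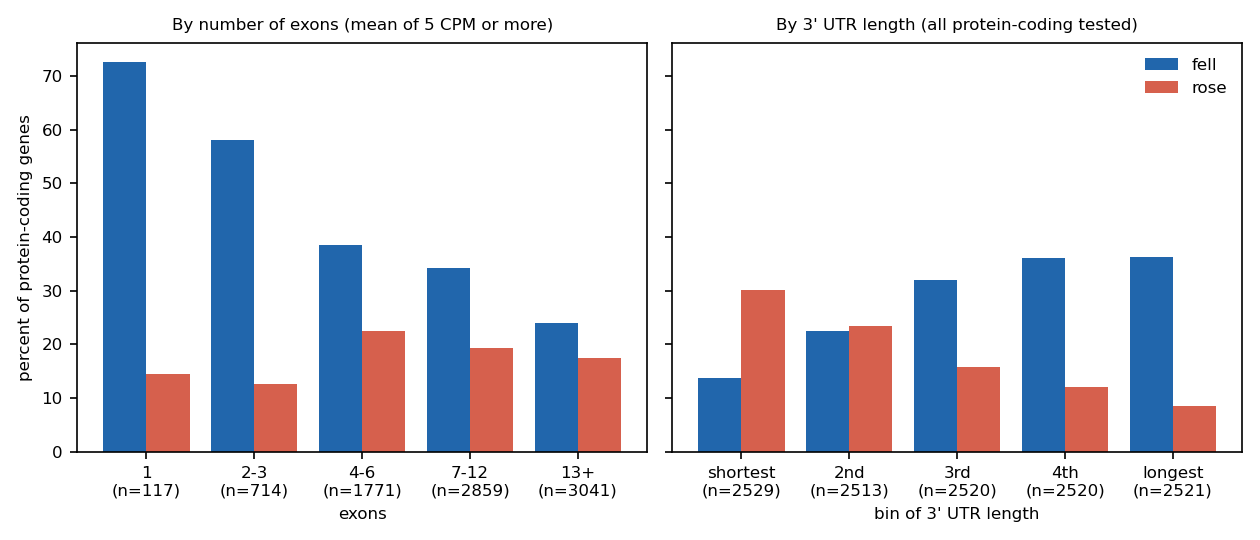
Percent of protein-coding genes that fell (blue bars) or rose (red bars) at 3 h against 0 h, by number of exons for genes of at least 5 CPM (left panel) and by bin of 3′UTR length (5 bins of about equal numbers) for all those tested (right panel). The share that fell was 72.6% for genes with 1 exon and 23.9% for those with 13 or more, and it was 13.8% for the shortest 3′UTRs and 36.2% for the longest.

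AU-rich elements in the 3′UTR mark mRNAs for rapid decay, and their core is the nonamer TTATTTATT as written in DNA. It was present in the 3′UTR of 11.7% of protein-coding genes that fell at least 2-fold (234 of 2007), in 4.91% of those that rose at least 2-fold (30) and in 8.04% of all tested. Of 231 genes with 2 or more nonamers 40.7% fell and 9.96% rose, against 27.2% and 18.8% of 11590 without one. Within bins of 3′UTR length the gap was widest where 3′UTRs were short and few genes held the nonamer. In the bin with the shortest 3′UTRs 33.3% of 24 genes with the nonamer fell, against 13.6% of 2505 without it, and in the next 34.8% of 69 against 22.1% of 2444. The shares were 35.6% of 149 against 31.7% of 2371 in the middle bin, 42.6% of 244 against 35.3% of 2276 in the one after it, and 36.8% of 527 against 36.1% of 1994 in the longest. Windows of at most 30 bases from GENCODE release 29 transcripts on GRCh38 are shown for some of the genes described below. They place the element in mRNAs of different roles. Capitals mark the first nonamer and any later copy that does not overlap a marked one. Overlapping copies are not marked, as in IL10RA, PELO and TNF. The position given is that of the first base of the first nonamer in the 3′UTR.
TIPARP, chr3:156705515-156705544, plus strand, position 394: aggattctatTTATTTATTtacgtttgata
DDIT3, chr12:57516615-57516644, minus strand, position 175: gattgtacatTTATTTATTactgtccctat
ZFP36L2, chr2:43223447-43223476, minus strand, position 853: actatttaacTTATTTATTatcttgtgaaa
ZFP36, chr19:39409196-39409225, plus strand, position 507: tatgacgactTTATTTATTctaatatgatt
IL10RA, chr11:118001168-118001197, plus strand, position 1537: cttgaaagctTTATTTATTtattttgttca
PELO, chr5:52802673-52802702, plus strand, position 843: acatgctataTTATTTATTtatttttttgc
TNF, chr6:31577990-31578019, plus strand, position 463: gcacttgtgaTTATTTATTatTTATTTATT
KLF5, chr13:73077177-73077206, plus strand, position 1301: ttgtttatctTTATTTATTttgtggtaata
The first 7 of these genes fell at 3 h, and KLF5, shown beside them, rose. PIM1, described below but not shown, has 3 nonamers and did not pass at 3 h, so the windows do not show how often such genes fell.

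Genes of the P-TEFb machinery itself fell. Of 10 genes of P-TEFb, the 7SK particle and the BET family 9 fell, 0 rose and 1 did not pass, with a median log2 change of -1.23, against 0.00 over all genes, and the median was negative under each of the 5 other scalings. MEPCE, the enzyme that caps 7SK RNA (chromosome 7, 100428790 to 100434126), had 13.6 and 13.9 CPM at 3 h, against 94.1 and 92.4 CPM at 0 h. BRD2, a BET protein (chromosome 6, 32968660 to 32981505), had 55.8 and 54.2 CPM at 3 h, against 242 and 238 CPM at 0 h. The falls were 6.78-fold for MEPCE (log2 -2.76 ± 0.157, standard error, adjusted p = 4.37e-07) and 4.37-fold for BRD2 (-2.13 ± 0.0932, adjusted p = 1.85e-07). CDK9, the target of the drug, had 32 and 32.3 CPM at 3 h, against 63.4 and 62.3 CPM at 0 h, a fall by 0.97 on the log2 scale. An mRNA level does not show the activity of the kinase.

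The rest of the RNA polymerase II machinery divided. Of 29 pausing, elongation and kinase genes 11 fell and 4 rose, with a median of -0.09 that turned to 0.17 with upper-quartile factors; leaving out one library gave 4 to 7 that fell. EAF1, a partner of the elongation factor ELL, fell furthest of the 29, with 5.87 and 6.2 CPM at 3 h, against 25.5 and 24.8 CPM at 0 h. Of 32 Mediator subunits, which link transcription factors to the polymerase, 15 fell and 3 rose (median -0.35, negative under each scaling), with MED17 at -2.97 ± 0.258, MED18 at -2.69 ± 0.219 and MED9 at -2.56 ± 0.279. Of 25 general initiation factors 10 fell and 2 rose (median -0.26, but 0.04 with upper-quartile factors). Of 30 cleavage, termination and Integrator genes 11 fell and 5 rose (median -0.05, but 0.25 with upper-quartile factors). Among them CSTF1, a subunit of the cleavage stimulation factor (chromosome 20, 56392371 to 56406369), had 6.53 and 5.43 CPM at 3 h, against 56.2 and 58.7 CPM at 0 h, and INTS5, an Integrator subunit, 7.91 and 6.34 CPM, against 58.7 and 57.7 CPM. Their falls were by 3.26 and 3.03 on the log2 scale. The subunits of the polymerase itself did not follow: of 11, 1 fell and 4 rose (median 0.46, but -0.68 and -0.24 with mitochondrial and ribosomal protein mRNAs held level), and without one library 0 to 2 rose. POLR2D, at -1.12 ± 0.123, was the one that fell. Of 17 SR splicing factors and CLK kinases 6 fell and 1 rose (median -0.16, but 0.14 with upper-quartile factors).

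Immediate-early genes and the feedback genes that signals switch on within minutes were widely lower. Some of them were low from the start, with 0 h means of 0.287 CPM for FOS, 0.796 CPM for NR4A1 and 0.317 CPM for DUSP6, so their changes rest on few counts. Of 13 AP-1 factors 8 fell and 1 rose (median -1.01), of 12 EGR, IER and other immediate-early genes 7 fell and 1 rose (-1.63), of 10 KLF factors 5 fell and 2 rose (-0.73), and of 15 DUSP and Sprouty genes 10 fell and 0 rose (-1.86); these 4 medians were negative under each scaling. TIPARP, an ADP-ribosyltransferase induced by the aryl hydrocarbon receptor (chromosome 3, 156673235 to 156706770), had 0.547 and 0.455 CPM at 3 h, against 13.4 and 13.6 CPM at 0 h, and was 26.8-fold lower. JUNB, a single-exon AP-1 gene, had 11.1 and 12.5 CPM at 3 h, against 57 and 60 CPM at 0 h. DUSP5 (-4.25 ± 0.388), DUSP2 (-3.49 ± 0.164) and DUSP7 (-3.43 ± 0.129), phosphatases that switch off MAP kinases, fell by more than 8-fold each. DUSP5 was low throughout, with 0.146 and 0.21 CPM at 3 h, against 3.56 and 3.36 CPM at 0 h. Against this direction KLF5 stood at 5.98 and 3.92 CPM at 3 h, against 0.61 and 0.745 CPM at 0 h (2.86 ± 0.272, adjusted p = 1.16e-05). KLF9 had no count at 0 h and 15 counts at 3 h, at least 7.62-fold higher when the group at 0 h is set to a floor of 3 counts.

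Factors that degrade mRNA fell with them. Of 14 mRNA decay factors 9 fell, 0 rose and 5 did not pass (median -1.62, negative under each scaling, and 9 without any one library). ZFP36L2, which binds AU-rich elements and brings in the deadenylase (chromosome 2, 43222402 to 43226609), had 3.46 and 5.08 CPM at 3 h, against 56.4 and 60.2 CPM at 0 h, 13.6-fold lower. Its relative ZFP36 had 1.79 and 1.93 CPM at 3 h, against 9.42 and 9.62 CPM at 0 h. TOB1 and BTG1, antiproliferative proteins that bind the CCR4-NOT deadenylase, fell by 3.11 and 3.16 on the log2 scale. The 3′UTRs of ZFP36 and ZFP36L2 carry the nonamer shown above. PELO, which rescues stalled ribosomes, was among the largest falls of all genes of at least 5 CPM, at 0.584 and 0.385 CPM at 3 h, against 12.8 and 13.6 CPM at 0 h.

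Many mRNAs of the NF-kB pathway, on which many B-cell lymphomas depend for survival signals, were lower, those of its inhibitors as well as its activators. The activity of the pathway was not measured. Of 15 NF-kB subunits and inhibitors 10 fell and 0 rose (median -0.71), and of 18 genes of the CBM complex and the MYD88 pathway 8 fell and 0 rose (-0.37); both medians were negative under each scaling. The inhibitor NFKBIE had 9.08 and 7.01 CPM at 3 h, against 59.3 and 61.7 CPM at 0 h (-2.91 ± 0.161), and NFKBIA, which encodes IkB-alpha, 25.9 and 23.5 CPM, against 69.8 and 69.6 CPM (-1.50 ± 0.173). The signalling genes TRAF6 (-3.87 ± 0.312), MAP3K14 (-3.66 ± 0.178), which encodes the kinase NIK, and MAP3K8 (-2.33 ± 0.119) fell further. BIRC3, an inhibitor of apoptosis and an NF-kB target (chromosome 11, 102317450 to 102339403), lost the most CPM of the genes that passed: it had 156 and 170 CPM at 3 h, against 637.7 and 615 CPM at 0 h, 3.84-fold lower (-1.94 ± 0.306, adjusted p = 0.000478).

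The promoters of BIRC3 and NFKBIA, both known NF-kB targets, and of JUNB are shown because these genes moved together, as the 250 bases before the RefSeq start on GRCh38.p14. Capitals mark a match on either strand to the NF-kB motif (GGG, any 2 bases, then TTTCC) in the first and second, and TATAAA between 35 and 20 bases before the start in the third.
BIRC3, chr11:102317234-102317483, plus strand: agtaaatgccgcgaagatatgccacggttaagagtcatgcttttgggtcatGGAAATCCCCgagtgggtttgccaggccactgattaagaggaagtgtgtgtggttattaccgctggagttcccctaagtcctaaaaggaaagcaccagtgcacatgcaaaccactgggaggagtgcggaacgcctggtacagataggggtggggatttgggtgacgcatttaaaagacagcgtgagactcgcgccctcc
NFKBIA, chr14:35404750-35404999, minus strand: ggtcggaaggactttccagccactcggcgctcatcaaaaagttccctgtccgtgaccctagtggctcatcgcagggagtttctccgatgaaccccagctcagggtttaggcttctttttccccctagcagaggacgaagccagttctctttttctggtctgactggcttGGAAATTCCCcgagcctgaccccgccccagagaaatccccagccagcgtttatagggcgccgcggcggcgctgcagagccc
JUNB, chr19:12791236-12791485, plus strand: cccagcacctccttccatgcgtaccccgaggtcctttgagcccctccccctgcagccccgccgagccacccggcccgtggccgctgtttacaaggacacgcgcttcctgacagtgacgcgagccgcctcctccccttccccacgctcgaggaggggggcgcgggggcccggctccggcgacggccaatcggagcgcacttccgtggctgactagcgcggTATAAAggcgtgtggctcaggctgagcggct
Over promoters of 300 bases, 50 of them after the start, the NF-kB motif was found in 1.87% of 1655 genes that fell at least 2-fold and in 2.18% of 10234 protein-coding genes tested, and TATAAA in that window in 2.18% and 1.81%. The cAMP response element TGACGTCA was found in 4.41% and 3.3%, the E-box CACGTG in 10.3% and 10.1% and the AP-1 motif TGANTCA in 3.87% and 4.44%. A promoter was matched for 82.5% of the protein-coding genes that fell at least 2-fold but for only 70.3% of those that rose, so no share is given for the risers.

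Cytokine and surface genes of B-cell activation divided into those lost and a few that stayed high. Of 20 chemokines, cytokines and ligands 10 fell and 6 rose (median -0.65), and of 19 genes of B-cell activation and costimulation 12 fell and 1 rose (-1.04); both medians were negative under each scaling. CD83, an activation marker, had 28.3 and 23.7 CPM at 3 h, against 166 and 164 CPM at 0 h, 6.36-fold lower. TNF had 2.15 and 1.68 CPM at 3 h, against 8.86 and 8.47 CPM at 0 h. CCL3 had 79 counts at 0 h and none at 3 h, at least 17.3-fold lower over a floor of 3 counts. In the other direction CCL22, a chemokine that attracts T cells, had 134 and 133 CPM at 3 h, against 81 and 74.9 CPM at 0 h (0.77 ± 0.0981, adjusted p = 9.87e-05), a sign that turned when mitochondrial mRNAs were held level. Of 22 JAK, STAT, IL10 receptor and SOCS genes 7 fell and 2 rose (median -0.13, but 0.17 with upper-quartile factors). SOCS1, an inhibitor of JAK kinases, had 2.52 and 2.14 CPM at 3 h, against 24.7 and 25.6 CPM at 0 h, and IL10RA 3.36 and 2.63 CPM, against 28.4 and 27 CPM.

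Interferon regulatory factors were among the lists that fell furthest, while the list of B-cell lineage factors fell less. In the lineage list 9 genes fell and 3 rose at least 2-fold. Of 11 interferon regulatory factors and their partners 9 fell and 0 rose (median -1.81), and of 31 B-cell lineage and germinal-centre factors 19 fell and 3 rose (-0.61); both medians were negative under each scaling, and without one library 11 to 14 of the 31 fell. IRF1, which activates interferon target genes (chromosome 5, 132481609 to 132490798), had 1.42 and 1.68 CPM at 3 h, against 24.6 and 23.1 CPM at 0 h, 15.3-fold lower. Interferon-stimulated genes themselves mostly did not pass, as was so of all genes tested: of 21, 4 fell, 2 rose and 15 did not pass. The shares were 19% that fell and 9.52% that rose, against 24.3% and 17.8% over all genes. ID3 and ID2, which hold E proteins off DNA, fell by 4.02 and 3.63 on the log2 scale. BCL6, the repressor that keeps germinal-centre B cells from differentiating, had 79 and 82.7 CPM at 3 h, against 191 and 195.5 CPM at 0 h. XBP1, needed for plasma cells, had 26.2 and 22.3 CPM at 3 h, against 114 and 119 CPM at 0 h. Genes of the B-cell receptor pathway stood apart from these: of 27, 1 fell, 6 rose and 20 did not pass (median 0.01, negative with library totals alone and with mitochondrial or ribosomal protein mRNAs held level). PIK3R1, the regulatory subunit of PI3-kinase, was the one that fell, at 6.71 and 7.67 CPM at 3 h, against 58 and 55.3 CPM at 0 h. CD79A, the receptor's signalling chain, had 840 and 769 CPM at 3 h, against 554 and 566 CPM at 0 h, a rise by 0.52 on the log2 scale that did not pass without 0 h replicate 1 (0.55) or 3 h replicate 1 (0.46) and turned negative with mitochondrial or ribosomal protein mRNAs held level. Of 17 migration receptors and RGS genes 12 fell and 1 rose (median -1.01, negative under each scaling), RGS16 and RGS1 by 2.96 and 2.63 on the log2 scale.

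Genes of cell survival and death both fell. MCL1, a short-lived anti-apoptotic protein (chromosome 1, 150574551 to 150579738), had 51.2 and 46.8 CPM at 3 h, against 274.5 and 283 CPM at 0 h, 5.69-fold lower (-2.51 ± 0.164, adjusted p = 9.19e-07). Of 5 anti-apoptotic BCL2 genes 3 fell and 0 rose (median -0.45), and of 11 pro-apoptotic ones 6 fell and 0 rose (-0.65); both medians were negative under each scaling. BCL2L1, which encodes BCL-XL, had 50.4 and 42.4 CPM at 3 h, against 63.2 and 63.1 CPM at 0 h (-0.45 ± 0.109, adjusted p = 0.00722). Without 0 h replicate 1, 0 h replicate 2 or 3 h replicate 2 the change of BCL2L1 was -0.41, -0.39 and -0.28 and did not pass. On the other side, PMAIP1, which encodes the MCL1 antagonist NOXA, had 17.3 and 16.5 CPM at 3 h, against 63.2 and 66.4 CPM at 0 h. BBC3, which encodes PUMA, had 1.61 and 1.51 CPM at 3 h, against 10.3 and 9.84 CPM at 0 h. Of 13 genes of death receptors, FLIP and IAP proteins 9 fell and 0 rose (median -1.39, negative under each scaling, and 9 without any one library). FADD, the adaptor of death receptors, had 1.13 and 1.09 CPM at 3 h, against 13.5 CPM in both libraries at 0 h. Of 27 p53 targets 18 fell and 1 rose (median -1.26, negative under each scaling). GADD45A and the kinase PLK3 fell by 3.38 and 3.61 on the log2 scale, and CDKN1A, the cell-cycle inhibitor p21, had 21.6 and 17.9 CPM at 3 h, against 64.7 and 66.1 CPM at 0 h.

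**Figure D3:**
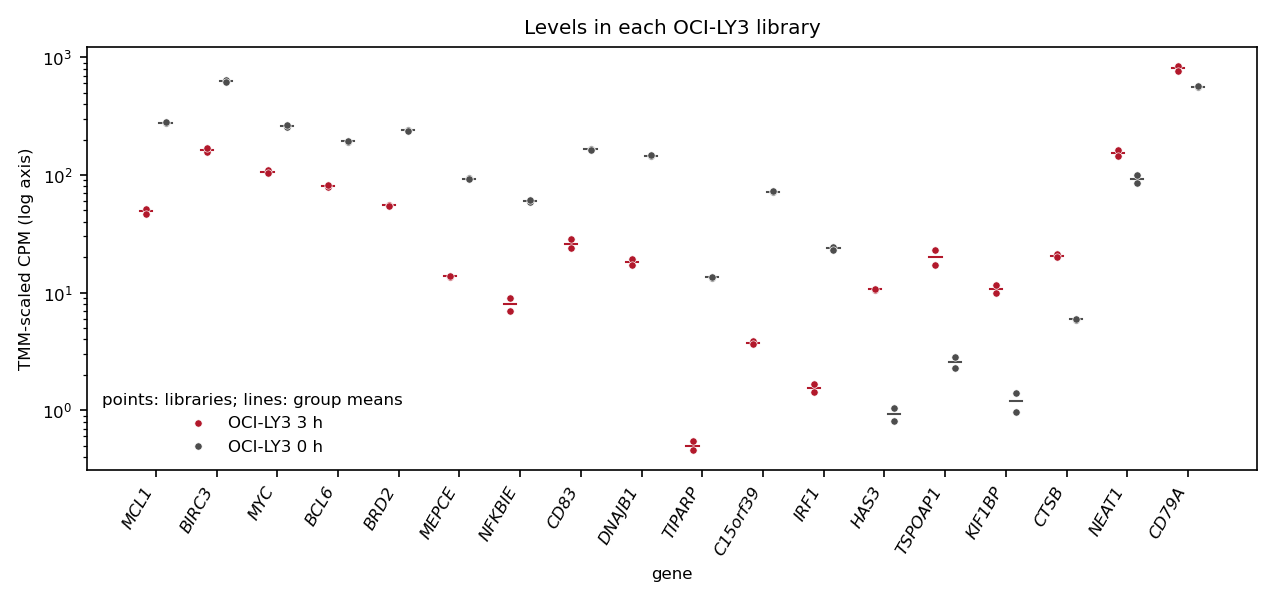
TMM-scaled CPM (log axis) of 18 genes in each OCI-LY3 library, with the 3 h libraries (red) to the left of the 0 h libraries (grey); points are libraries and short lines group means. MCL1 had 51.2 and 46.8 CPM at 3 h, against 274.5 and 283 CPM at 0 h, and HAS3 10.6 and 10.7 CPM, against 0.805 and 1.04 CPM; the rises of CD79A and NEAT1 turned negative when mitochondrial mRNAs were held level.

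Many growth genes of the MYC network and of G1 fell, and replication genes were near the shares over all genes tested. Among protein-coding genes of at least 5 CPM 33.9% fell and 18.7% rose. The shares that fell of nucleolar (36.4%), mitotic (34.4%) and homologous recombination and Fanconi genes (36%) were near that 33.9%. Of 11 genes of the MYC and MAX network 6 fell and 0 rose (median -0.70, negative under each scaling, and 3 without 0 h replicate 2). MYC had 109 and 103 CPM at 3 h, against 257.7 and 264 CPM at 0 h. Of 33 nucleolar genes of ribosome biogenesis, many of them MYC targets, 12 fell and 3 rose (median -0.21, but 0.10 with upper-quartile factors); RRS1, an intronless ribosome assembly gene, fell by 1.72 on the log2 scale. Of 22 G1 cyclins, kinases and inhibitors 11 fell and 1 rose (median -0.50, negative under each scaling), with CDC25A, a phosphatase that activates CDK2, at 17.3 and 16.6 CPM at 3 h, against 101 and 102 CPM at 0 h. Of 32 mitotic genes 11 fell and 2 rose (median -0.17, but 0.13 with upper-quartile factors), and of 35 replication genes 8 fell and 8 rose (22.9% each, against 24.3% and 17.8% over all genes; median 0.04, but negative with library totals alone and with mitochondrial or ribosomal protein mRNAs held level). Of 25 homologous recombination and Fanconi genes 9 fell and 1 rose (median -0.19, but 0.11 with upper-quartile factors); PALB2, the partner of BRCA2, had 6.09 and 5.82 CPM at 3 h, against 39.4 and 40.6 CPM at 0 h.

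Many genes of the integrated stress response fell, while chaperones fell and rose about as all genes tested did. Among protein-coding genes of at least 5 CPM a larger share fell, 33.9%, and 18.7% rose. Of 20 genes of the integrated stress response 13 fell and 2 rose (median -1.62, negative under each scaling). DDIT4, an inhibitor of mTORC1, had 0.328 and 0.21 CPM at 3 h, against 8.59 and 9.03 CPM at 0 h, 32.4-fold lower, and DDIT3, which encodes CHOP, 0.401 and 0.14 CPM, against 7.29 and 7.54 CPM, 27.2-fold lower. Their upstream factor ATF4 had 206 and 181 CPM at 3 h, against 491 and 510 CPM at 0 h. Of 20 cytosolic chaperones 5 fell and 3 rose (25% and 15%, against 24.3% and 17.8% over all genes; median 0.12, but negative with library totals alone and with mitochondrial or ribosomal protein mRNAs held level), the fall being deepest in DNAJB1, an HSP40 co-chaperone, with 19.2 and 17.2 CPM at 3 h, against 144 and 148 CPM at 0 h. Of 22 genes of sterol synthesis and uptake 11 fell and 4 rose (median -0.44, negative under each scaling; 7 fell without 0 h replicate 1 or 0 h replicate 2). Of 18 NRF2 and glutathione genes 4 fell and 9 rose (median 0.50, but -0.63 and -0.19 with mitochondrial and ribosomal protein mRNAs held level). Among the 4 were NFE2L2, which encodes NRF2 itself, with 24.7 and 23.7 CPM at 3 h, against 75.3 and 74.2 CPM at 0 h, and its inhibitor KEAP1.

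Many regulators of chromatin fell. Of 29 histone methyltransferases and demethylases 18 fell and 2 rose (62.1% and 6.9%), with a median of -0.74. Of 23 acetyltransferases and deacetylases 11 fell and 5 rose (-0.32), and of 13 genes of DNA methylation and demethylation 7 fell and 0 rose (-0.70). All 3 medians were negative under each scaling, and without one library 4 or 5 of the 13 fell. SIRT1, a NAD-dependent deacetylase, had 8.83 and 11.5 CPM at 3 h, against 52.4 and 53.1 CPM at 0 h. EP300, the p300 acetyltransferase, had 22.4 and 28.6 CPM at 3 h, against 90.5 and 89.8 CPM at 0 h, and SETD1A, an H3K4 methyltransferase, 28.6 and 35.1 CPM, against 81.8 and 79.9 CPM. HDAC1 was on the other side, at 341 and 330 CPM at 3 h, against 223 and 222 CPM at 0 h, a sign that turned with mitochondrial or ribosomal protein mRNAs held level.

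Transcripts of many housekeeping genes took a larger share. Of 78 cytosolic ribosomal protein genes 76 rose and 0 fell (median 0.71, but -0.44 with mitochondrial mRNAs held level), of 43 nuclear respiratory-chain subunits 34 rose and 1 fell (0.65, but -0.50 and -0.05 with mitochondrial and ribosomal protein mRNAs held level), and of 13 mitochondrially encoded mRNAs 12 rose and 0 fell (1.17, and 0.45 with ribosomal protein mRNAs held level). Of glycolysis genes 14 of 19 rose (median 0.55) and of cytoskeletal genes 15 of 22 (0.48). Of proteasome subunits 10 of 34 rose and 24 did not pass (0.45), and of lysosomal genes 12 of 27 rose and 14 did not pass (0.27). The glycolysis, cytoskeletal, proteasome and lysosomal lists each had a negative median when mitochondrial or ribosomal protein mRNAs were held level. RPLP2, a protein of the ribosomal stalk, had 1696 and 1480 CPM at 3 h, against 899 and 919 CPM at 0 h, a sign that turned with mitochondrial mRNAs held level. MT-CO1, a cytochrome oxidase subunit, had 11180 and 7862 CPM at 3 h, against 4440 and 4042 CPM at 0 h, so that the 2 libraries at 3 h differed from each other by more than those at 0 h, and its change was -0.0044 with mitochondrial mRNAs held level. These counts depended on single libraries: without 0 h replicate 1, 27 ribosomal protein genes, 15 respiratory-chain, 4 glycolysis, 5 cytoskeletal, 1 proteasome and 4 lysosomal genes rose, and without 3 h replicate 1 the numbers were 34, 13, 7, 7, 0 and 6. Within the glycolysis list the glucose transporter SLC2A1 went the other way, with 30 and 29.4 CPM at 3 h, against 113 and 116 CPM at 0 h. CTSB, the lysosomal protease cathepsin B, rose most of its list, with 21.2 and 20 CPM at 3 h, against 5.9 and 5.94 CPM at 0 h (1.80 ± 0.128, adjusted p = 1.53e-06).

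**Figure D4:**
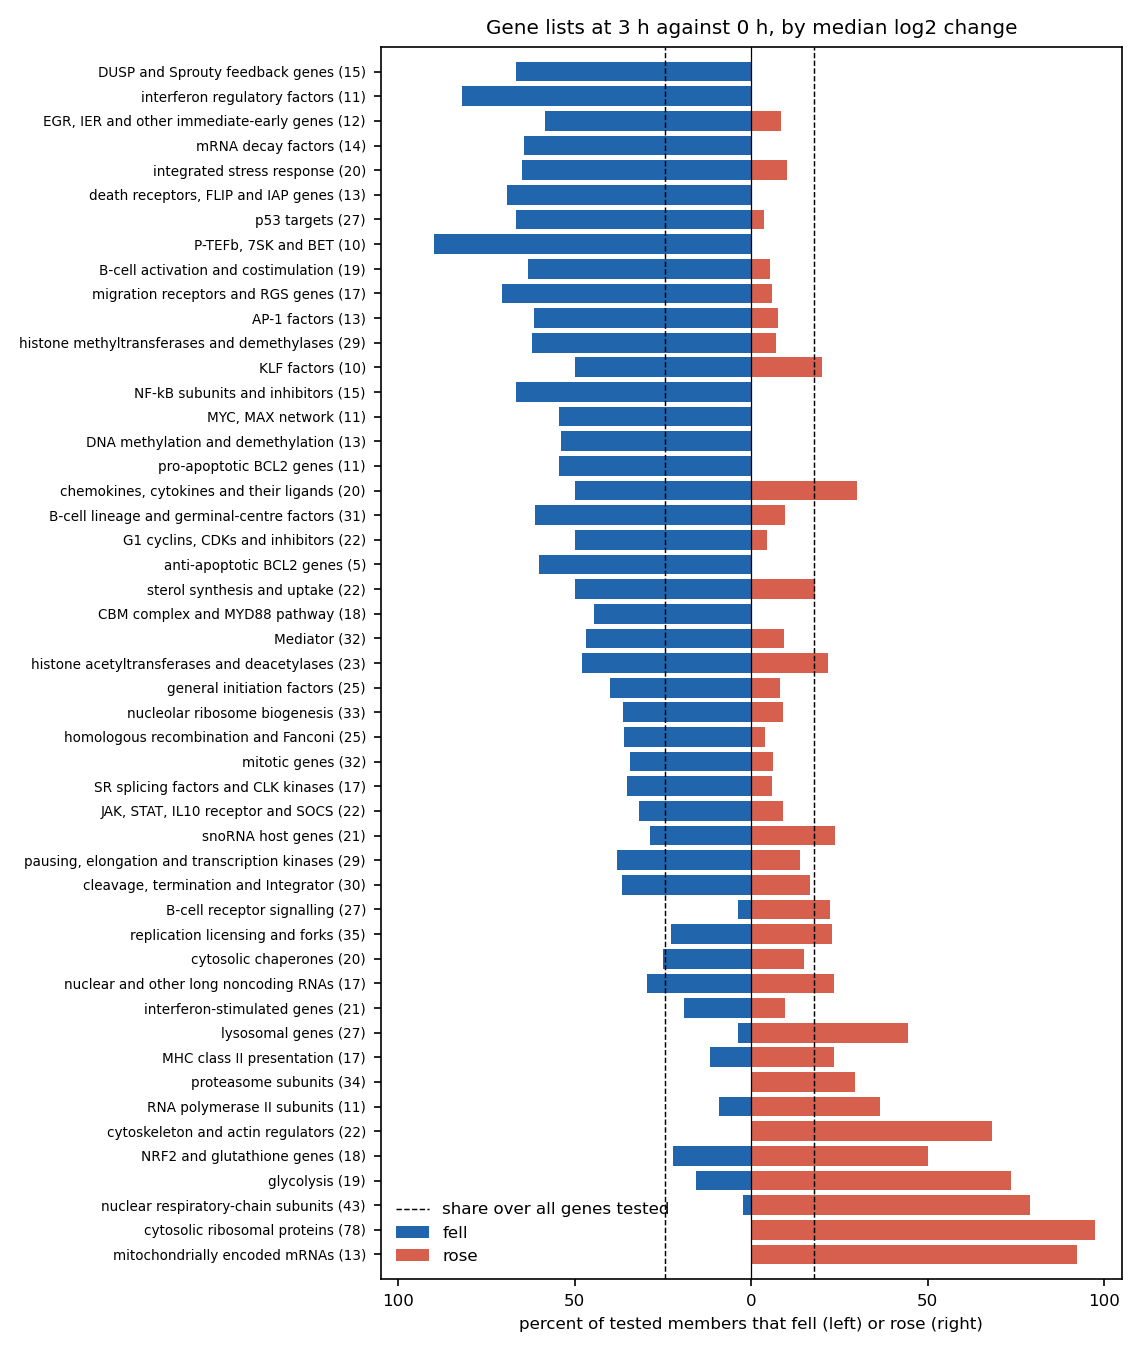
Percent of the tested members of each of the 49 gene lists that fell (blue bars, left) or rose (red bars, right) at 3 h against 0 h, ordered by median log2 change. The number tested is in parentheses and dashed lines mark 24.3% and 17.8%, the shares over all genes tested. Among protein-coding genes of at least 5 CPM the shares were 33.9% and 18.7%. Lists such as DUSP and Sprouty feedback genes lie at the top and mitochondrially encoded mRNAs at the bottom; the medians of the ribosomal protein and respiratory-chain lists near the bottom turned negative when mitochondrial mRNAs were held level.

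Among the largest changes in protein-coding genes of at least 5 CPM, the falls and the rises differed in kind. C15orf39 (chromosome 15, 75195643 to 75212169) had 3.87 and 3.64 CPM at 3 h, against 71.2 and 73.2 CPM at 0 h, 19.2-fold lower and the smallest adjusted p of all the genes named here (1.98e-08). SGK1, a kinase of ion transport and survival, and RND1, a small GTPase, fell by 4.06 and 4.36 on the log2 scale. HAS3, a hyaluronan synthase (chromosome 16, 69105564 to 69118719), had 10.6 and 10.7 CPM at 3 h, against 0.805 and 1.04 CPM at 0 h, 11.5-fold higher (3.52 ± 0.174, adjusted p = 2.86e-07). TSPOAP1, which binds the mitochondrial translocator protein, had 22.9 and 17.3 CPM at 3 h, against 2.85 and 2.3 CPM at 0 h. KIF1BP, a kinesin-binding protein, had 11.6 and 9.98 CPM at 3 h, against 1.42 and 0.971 CPM at 0 h, and PLPP5, a lipid phosphatase, 9.45 and 9.46 CPM, against 1.34 and 1.49 CPM. The library kit did not keep strand, so reads from an overlapping gene cannot be told apart: HAS3 overlaps CHTF8, and CHRNA10, another of the largest rises (2.28 ± 0.361), overlaps NUP98. KIF1BP begins 3648 bp after the end of DDX21 on the same strand, and PLPP5 begins 454 bp after the end of NSD3.

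Some of the low-expressed genes that rose start within 10 kb after the end of an expressed gene. Of 913 genes under 1 CPM at 0 h that rose at least 2-fold, 18.2% (166) started within 10 kb after the end of a same-strand gene of at least 20 CPM, against 9.08% of 4109 genes of that level that were not called and 11% of all genes. Overlap with a gene of at least 20 CPM was not more frequent among them: 17.6% of the 913, against 20.5% of the 4109 and 19.3% of all genes. These are shares without a test. Among the 913, 14 genes had under 3 counts in each library at 0 h and at least 1 CPM in both at 3 h. Of the 14, 0 started within 10 kb after a same-strand gene of at least 20 CPM. FFAR3, a receptor of short-chain fatty acids, had 3.06 and 1.61 CPM at 3 h and no count at 0 h, at least 66-fold higher over a floor of 3 counts. FEZF2, a forebrain transcription factor, had 3.43 and 2.1 CPM at 3 h, against 0.0244 and 0 CPM at 0 h, and GCM1, a placental one, 2.37 and 1.75 CPM, against 0 and 0.0226 CPM.

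Noncoding RNAs showed both directions. Of 861 long intergenic RNAs 17.4% rose and 12.9% fell, against 17.8% and 24.3% over all genes, so their rises were near the general share. Of 621 processed pseudogenes 23% rose and 3.06% fell, where reads can be shared with the parent gene. SNHG12, a host of small nucleolar RNAs, had 7.04 and 5.08 CPM at 3 h, against 33.8 and 32.8 CPM at 0 h, and MIR17HG, the host of the miR-17-92 cluster, 1.39 and 1.33 CPM, against 7.81 and 6.68 CPM. NORAD, an intronless RNA that binds Pumilio proteins, had 39.5 and 37 CPM at 3 h, against 135 and 131 CPM at 0 h. NEAT1, the scaffold of paraspeckles, rose with 162 and 146 CPM at 3 h, against 99.1 and 85.4 CPM at 0 h (0.74 ± 0.19, adjusted p = 0.00969), a sign that turned when mitochondrial mRNAs were held level, and it did not pass without 0 h replicate 2 (0.68) or 3 h replicate 1 (0.66). Small nuclear RNAs, which have no poly(A) tail and are near absent from such libraries, were higher: 14 of 25 rose (56%) and 1 fell (4%). Of 39 small nucleolar RNAs 6 rose (15.4%, near the share over all genes) and 15 fell (38.5%). RNU5A-1, a U5 RNA of the spliceosome (chromosome 15, 65296051 to 65296166), had 7.84 and 6.9 CPM at 3 h, against 0.0244 and 0.0226 CPM at 0 h, which is 1 count in each library. SNORD3A, a U3 RNA of the nucleolus whose family was chosen after its values were seen, had 9.92 and 7.5 CPM at 3 h, against 0.781 and 1.13 CPM at 0 h. RNU5A-1, U1, U3 and similar RNAs have near-identical copies, so their reads are not assigned to one gene with certainty. Poly(A) addition to these RNAs was not measured.

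By 6 h some of these genes had returned and others had fallen further. Between 3 h and 6 h 1958 of all genes tested rose (12%) and 2670 fell (16.3%); this comparison shares the 3 h libraries with the one above, so the values are given side by side and no overlap is counted. MYC averaged 261 CPM at 0 h, 106 CPM at 3 h and 419 CPM at 6 h. BCL6 averaged 193 CPM, 80.8 CPM and 281 CPM, so that both stood above their start at 6 h in TMM-scaled CPM. The 6 h libraries held 5.38% and 5.14% of counts in mitochondrial mRNAs and 15.7% and 15.9% in ribosomal protein mRNAs. Whether a 6 h level above the start remains with those mRNAs held level was not tested. MCL1 averaged 279 CPM at 0 h, 49 CPM at 3 h and 90.4 CPM at 6 h, a partial return. GADD45B, a p53 and NF-kB target, averaged 35.4 CPM, 6.19 CPM and 54.7 CPM, and IRF1 23.9 CPM, 1.55 CPM and 4.15 CPM. The 6 h against 3 h log2 changes were 1.98 ± 0.0939 for MYC, 1.80 ± 0.104 for BCL6, 0.88 ± 0.158 for MCL1, 3.14 ± 0.184 for GADD45B and 1.41 ± 0.182 for IRF1. Other genes went on falling: TAF5, a TFIID subunit, averaged 24.9 CPM at 0 h, 7.17 CPM at 3 h and 1.24 CPM at 6 h, and UTP15, a ribosome biogenesis factor, 58.7 CPM, 21 CPM and 4.79 CPM. PIM1, a survival kinase, did not pass at 3 h, with 115 and 107 CPM, against 126 and 124.5 CPM at 0 h, and stood at 533.6 and 514 CPM at 6 h. That call depends on the fit: PIM1 passed as lower at 3 h with library totals alone (-0.38), with mitochondrial (-1.31) or ribosomal protein mRNAs (-0.87) held level, and, at -0.17 each, with the weighted limma-voom fit and with 6 or 4 OCI-LY3 libraries fitted alone.

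**Figure D5:**
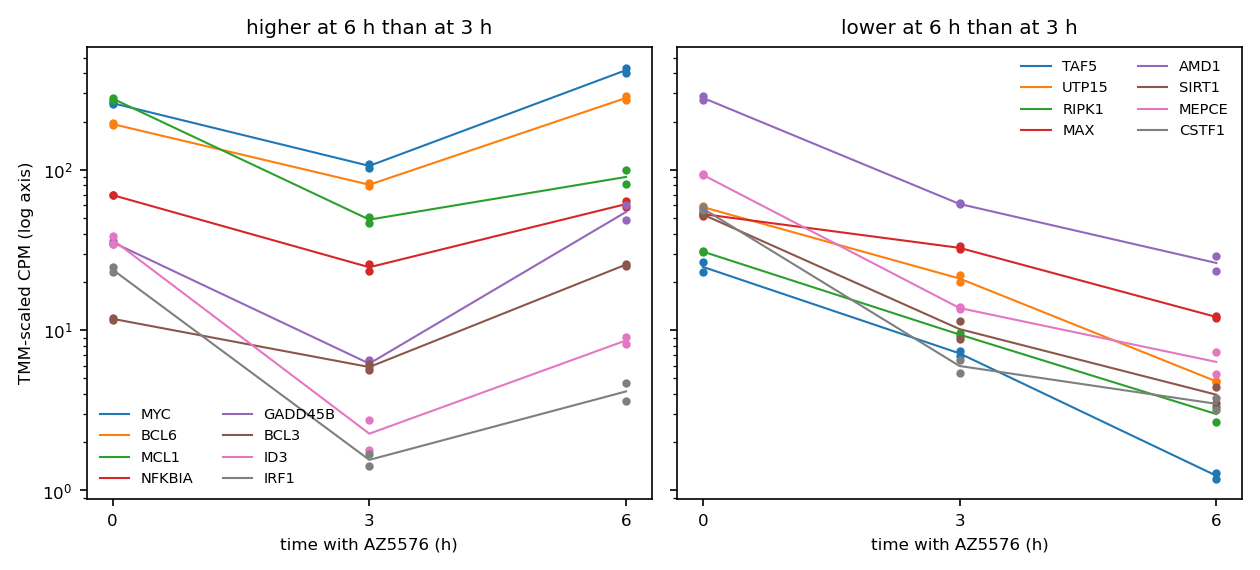
TMM-scaled CPM (log axis) in OCI-LY3 at 0 h, 3 h and 6 h with AZ5576 for 8 genes that were higher at 6 h than at 3 h (left panel) and 8 that were lower (right panel); points are libraries and lines join group means. MYC averaged 261 CPM at 0 h, 106 CPM at 3 h and 419 CPM at 6 h, while TAF5 averaged 24.9 CPM, 7.17 CPM and 1.24 CPM.

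The 3 h change was set against that of VAL by a test of the difference. The change in OCI-LY3 was above that in VAL in 447 genes (2.73%) and below it in 541 (3.3%). Among the 2326 genes that fell at least 2-fold in OCI-LY3, 150 had a positive and 182 a negative difference, and among the 1088 that rose at least 2-fold 70 had a positive and 4 a negative one. Since the OCI-LY3 change is part of both measures, these counts are given without a test. The number of genes with a difference fell to between 138 and 330, out of 988, when one OCI-LY3 library was left out. DDX3X, an RNA helicase gene, had 580 and 657 CPM at 3 h, against 580 and 569 CPM at 0 h in OCI-LY3, and 68.3 and 84.8 CPM at 3 h, against 420 and 414.5 CPM at 0 h in VAL (difference 2.55 ± 0.167, adjusted p = 0.000182). WASL, an actin regulator, had 3.54 and 3.57 CPM at 3 h, against 14.7 and 14.3 CPM at 0 h in OCI-LY3, and 15.4 and 8.16 CPM at 3 h, against 6.19 and 7.31 CPM at 0 h in VAL (difference -2.84 ± 0.407, adjusted p = 0.00529). KIF1BP, which rose in OCI-LY3, had 5.68 and 6.49 CPM at 3 h, against 6.23 and 6.93 CPM at 0 h in VAL (difference 3.29). The lines were sequenced on different lanes, per the labels, so lane and line cannot be told apart.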

How the data were processed

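Poly(A)+ RNA was sequenced as single reads from a library kit that keeps no strand, per the labels' protocols. The deposited raw table holds a whole-number count per gene and library, and a second deposited table holds log2 values. GRCh38 and DESeq2 are named in the submitters' processing notes. The aligner, the counter and their versions were not given in the sources used here. The floors of 3 counts cover counting error only, while the values after ± include the spread between libraries.

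Counts of all 12 libraries, 23175082 to 39715536 per library, were fitted in 1 model with a mean per line and time with edgeR 4.0.16 in R 4.3.3. Factors were TMM, the filter was filterByExpr, and glmQLFit and glmQLFTest gave two-sided tests on 6 residual degrees of freedom. Benjamini-Hochberg adjustment ran over the 16374 genes tested, with 0.05 as the threshold. Values after ± are standard errors of log2 changes. CPM are counts per 1000000 scaled by TMM. With 2 libraries a group, no permutation of samples could pass the threshold and no test for outlying samples applies. Steps were tested on simulated data.

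Members and the 49 gene lists were chosen with earlier results of these data known, and no set test was run. Genes named are up to 4 per list with the smallest adjusted p in the majority direction, members that passed against it, MCL1, MYC, BCL6, IRF4, PIM1 and CDK9, the largest changes of protein-coding and noncoding genes, the largest losses and gains in CPM, the largest differences between lines, and genes silent at 0 h. Some were left out for length. CCL3, COL1A1 and SNORD3A were named after their values were seen.

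Gene models came from GENCODE release 29 (57895 identifiers matched, the principal transcript used) and promoters from RefSeq on GRCh38.p14. Same-numbered OCI-LY3 libraries did not deviate together (correlations of -0.185, 0.0929 and 0.0184 over 8773 genes), and nothing in the labels pairs them, so no block was used. Alternatives were other scalings, filters and tests (DESeq2 1.42.0, limma 3.58.1), the log2 table, the OCI-LY3 libraries fitted by themselves, a block for replicate number, a test against 2-fold, and the fit without each library in turn. A crossed block and limma-voom with a weight per group were added after the data were seen.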

Additional observations from a re-analysis of the deposited data

Results flagged for a closer look

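For 19 of the genes described, the 3 h change in OCI-LY3 differed from that in VAL by edgeR's test of the difference (adjusted p under 0.05); values are the log2 change in OCI-LY3 less that in VAL. NFKBIA and DNAJB1 fell in OCI-LY3 with a positive difference. NFKBIA had 25.9 and 23.5 CPM at 3 h, against 69.8 and 69.6 CPM at 0 h in OCI-LY3, and 3.01 and 4.34 CPM at 3 h, against 42.4 and 44.6 CPM at 0 h in VAL, a difference of 2.08 ± 0.257. DNAJB1 had 2.74 and 3.46 CPM at 3 h, against 88.6 and 87.2 CPM at 0 h in VAL, a difference of 1.83 ± 0.202. The other positive differences in genes that fell in OCI-LY3 were 1.76 for TAF5, 1.40 for SOCS1, 1.20 for KEAP1 and 0.82 for JUNB. PIM1, which did not pass in OCI-LY3, had a difference of 1.44 and DDX3X one of 2.55. KIF1BP (3.29), KLF5 (3.28), PLPP5 (1.07) and TSPOAP1 (0.91) rose in OCI-LY3 and had positive differences, given in parentheses. Of other genes that fell in OCI-LY3, the difference was -1.92 for BBC3, -1.40 for BCL6, -1.38 for TIPARP, -1.28 for MYC and -1.13 for PLK3. BBC3 had 13.3 and 18.6 CPM at 3 h, against 26.6 and 27.6 CPM at 0 h in VAL. WASL had a difference of -2.84. That of CCL3 was fitted as -7.89, a value set by the fit since no count was left at 3 h in OCI-LY3; VAL had 0.0653 and 0.398 CPM at 3 h, against 0.0952 and 0.331 CPM at 0 h. The replicates of VAL at 3 h were far apart, with a chi-square over its degrees of freedom of 59, against 18.2 for OCI-LY3 at 3 h; the VAL libraries numbered 1 are labelled as resubmitted, and the part of this spread in the differences was not tested.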

How the results depend on the processing

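Genes higher at 3 h numbered 1783 with library totals alone, 5303 with upper-quartile factors, 417 and 559 with mitochondrial or ribosomal protein mRNAs held level, 4515 with limma-voom and 1 weight per group, 4417 with the OCI-LY3 libraries fitted alone and 429 against a 2-fold minimum. Genes lower numbered 10819 and 7914 with mitochondrial or ribosomal protein mRNAs held level, 2638 at a minimum mean of 5 CPM and 1294 against a 2-fold minimum. At least 2-fold higher genes numbered 1805 with upper-quartile factors, 407 and 488 with those mRNAs held level, 132 at 5 CPM, 716 on the log2 table and 429 against the minimum; at least 2-fold lower ones 8396 and 4956, 1283 at 5 CPM and 1294 against the minimum. The genes at least 2-fold lower with TMM all remained so with mitochondrial or ribosomal protein mRNAs held level (2326 shared), and 1665 did with upper-quartile factors. Leaving out one library gave 1490 to 2094 higher, 2915 to 3094 lower, 723 to 922 at least 2-fold higher and 2024 to 2109 at least 2-fold lower genes. Genes differing between lines numbered 1880 by DESeq2's Wald test, 2366 with a replicate block and 138 to 330 without one library. The replicate block gave 3361 higher and 4346 lower genes at 3 h and changed no call of the 93 genes named. With the numbers of the 0 h libraries crossed, these counts were 3392 and 4373. With mitochondrial mRNAs held level the changes of CCL22 (-0.35), CD79A (-0.61), COL1A1 (-0.016), DDX3X (-1.0), HDAC1 (-0.54), MT-CO1 (-0.0044), NEAT1 (-0.40) and RPLP2 (-0.34) reversed, and with ribosomal protein mRNAs level those of CD79A (-0.17), DDX3X (-0.58) and HDAC1 (-0.10). The cause of these shifts beyond the scaling factor itself was not tested. Low counts limit the genes below 1 CPM, and 2 libraries a group limit the changes of under 2-fold.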
